A study of Mus musculus with 8 samples.

Results

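The data described here are the difference between the effect of Mex3a deletion in mature olfactory sensory neurons and its effect in their precursors and immature neurons, gene by gene. Each effect is the scaled level in the knockout divided by the level in the control of the same population, on the log2 scale, and the difference is the effect in OMP-GFP cells minus the effect in Ngn1-GFP cells. A gene was a member if it had 100 or more counts in each pair of columns, knockout plus control, of an assay. Of 22553 genes in the deposited table, 7439 were members for ribosome footprints, 12166 for RNA and 7435 for both. A positive difference means that the knockout column stood higher against its control in the mature population than in the earlier one.

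Ribosome profiling sequences the stretches of mRNA that ribosomes protect and so counts how often each coding sequence is being translated, and RNA sequenced from the same kind of cells gives the message itself. Cells were sorted by fluorescence from papain-dissociated mouse main olfactory epithelium, which holds the sensory neurons of smell and their support cells. The labels list 8 libraries, all of footprints, in 4 groups of 2, and the RNA columns were assigned to these groups by their names alone. Control Ngn1-GFP cells came from mice with Mex3a flox/flox or Mex3a flox/+ alleles, no Cre driver and the Ngn1-GFP transgene, which marks immediate neuronal progenitors and immature olfactory sensory neurons. Knockout Ngn1-GFP cells carried Mex3a flox/flox, a Cre driver and the same transgene. Control OMP-GFP cells carried Mex3a flox/flox or Mex3a flox/+, no Cre and the OMP-ires-GFP knock-in, which marks mature neurons. Knockout OMP-GFP cells carried Mex3a flox/flox, the Cre driver and, by their description, OMP-ires-GFP, although their genotype tag names OMP-ires-Cre. Every group thus carried at least 1 floxed allele, every knockout carried Cre and no control did, so that deletion and Cre cannot be told apart. The sources used here do not give ages.

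The table holds 1 column per group and assay, so no column has a replicate, no difference can be set against a spread between mice and no test was made. Columns are given in 1 order throughout: Ngn1-GFP control, Ngn1-GFP knockout, OMP-GFP control, OMP-GFP knockout. Footprint totals were 4456989, 3031489, 3576406 and 4100841 counts. The RNA totals were 89327877, 27786809, 31855259 and 26946592 counts. Brackets give approximate 95% intervals that cover counting error only, and PCR copies can make even those too narrow. In control cells, footprints of 40 mature neuron genes took 6.05% of all counts in Ngn1-GFP and 9.06% in OMP-GFP cells, whereas those of 24 globose basal cell and precursor genes took 0.381% and 0.188%. Omp itself, the olfactory marker protein, had 2559 scaled footprint CPM, which are counts set against the column's scaled total, in Ngn1-GFP control and 2839 in OMP-GFP control cells. Omp was thus nearly as frequent in the earlier population.

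The Mex3a protein binds RNA through KH domains and carries a RING domain, the kind found in ubiquitin ligases. Each olfactory sensory neuron chooses a single receptor gene out of a large family, keeps it for life and sends its axon to a position in the olfactory bulb that depends on that receptor. Progenitors, immature neurons and mature neurons are successive stages of this lineage, while sustentacular cells, which surround the neurons and carry detoxifying enzymes, and the Bowman glands, which secrete mucus proteins, are other cells of the same epithelium. The comparison asks which genes stand differently after deletion at the late stage than at the early one.

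Mex3a had 9645, 656, 387 and 38 RNA counts in the 4 columns. Its RNA was lower after deletion in both populations, with effects of -2.25 [-2.36, -2.13] in Ngn1-GFP and -3.09 [-3.57, -2.61] in OMP-GFP cells, so that each knockout RNA column was below its control. The difference was -0.84 [-1.33, -0.35]. Its footprints were 437, 28, 16 and 5 counts. The OMP-GFP pair thus summed to 21, below the minimum, and Mex3a was no member in footprints. The sources used here do not say which exons of Mex3a lie between the loxP sites, so the counts left may come from outside them.

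Most genes did not differ by much between the populations. The median difference was -0.02 in footprints, with an SD over genes of 0.70, and -0.04 in RNA, with an SD of 0.69. Calling a gene apart at a 2-fold difference, 486 genes (6.53%) were higher and 458 (6.16%) lower in OMP-GFP footprints. In RNA, 702 genes (5.77%) were higher and 241 (1.98%) lower, 7.75% in either direction. A direction was read at 1.5-fold in each population. Footprints of 164 genes (2.2%) were opposite in direction, 103 (1.38%) higher in OMP-GFP and lower in Ngn1-GFP knockouts and 61 (0.82%) the reverse. Footprints of 252 genes (3.39%) were equal in direction, 106 (1.42%) higher in both and 146 (1.96%) lower in both. A further 1261 genes (17.0%) passed 1.5-fold in OMP-GFP cells alone and 924 (12.4%) in Ngn1-GFP cells alone, and in RNA 660 (5.42%) and 1043 (8.57%). In RNA, 184 genes (1.51%) were opposite, 150 (1.23%) higher in OMP-GFP and lower in Ngn1-GFP and 34 (0.279%) the reverse. RNA of 287 genes (2.36%) was equal, 121 (0.995%) higher in both and 166 (1.36%) lower in both.

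These shares were larger where counts were low. Among footprint members with a mean of 50 to 100 counts a column, 29.0% of 1409 were apart by 2-fold, against 2.15% of 652 with 1000 or more. The SD of the difference was 0.96 in the first set, where counting error alone gives 0.35, and 0.58 in the second, where it gives 0.07. Where 1 column of a pair held few counts, a gene was a member only if the other held many. The direction of such genes is partly set by the membership rule. Just outside that rule, 36.8% of 272 genes whose smaller pair held 90 to 99 footprint counts were 2-fold apart, and just inside it, at 100 to 109 counts, 37.0% of 238 were. Genes in the same class in both assays are therefore described first. The labels list no RNA library, so whether both assays used the same sorted cells is not known here.

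Few genes held the same direction class in both assays. The class higher in OMP-GFP and lower in Ngn1-GFP shared 17 genes, 16.5% of the 103 footprint genes and 54.8% of the 31 RNA genes among those measured in both. The reverse class shared 0 of 61 and 1. The class higher in both shared 10 genes, 9.71% of 103 and 32.3% of 31, of which 6 were olfactory receptors. The class lower in both shared 9 genes, 6.16% of 146 and 9 of 18, of which 8 were receptors. Over the 7435 genes measured in both assays the footprint and the RNA difference had a Pearson r of 0.20 and a Spearman rho of 0.09, a description over genes that share 8 columns.

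**Figure D1:**
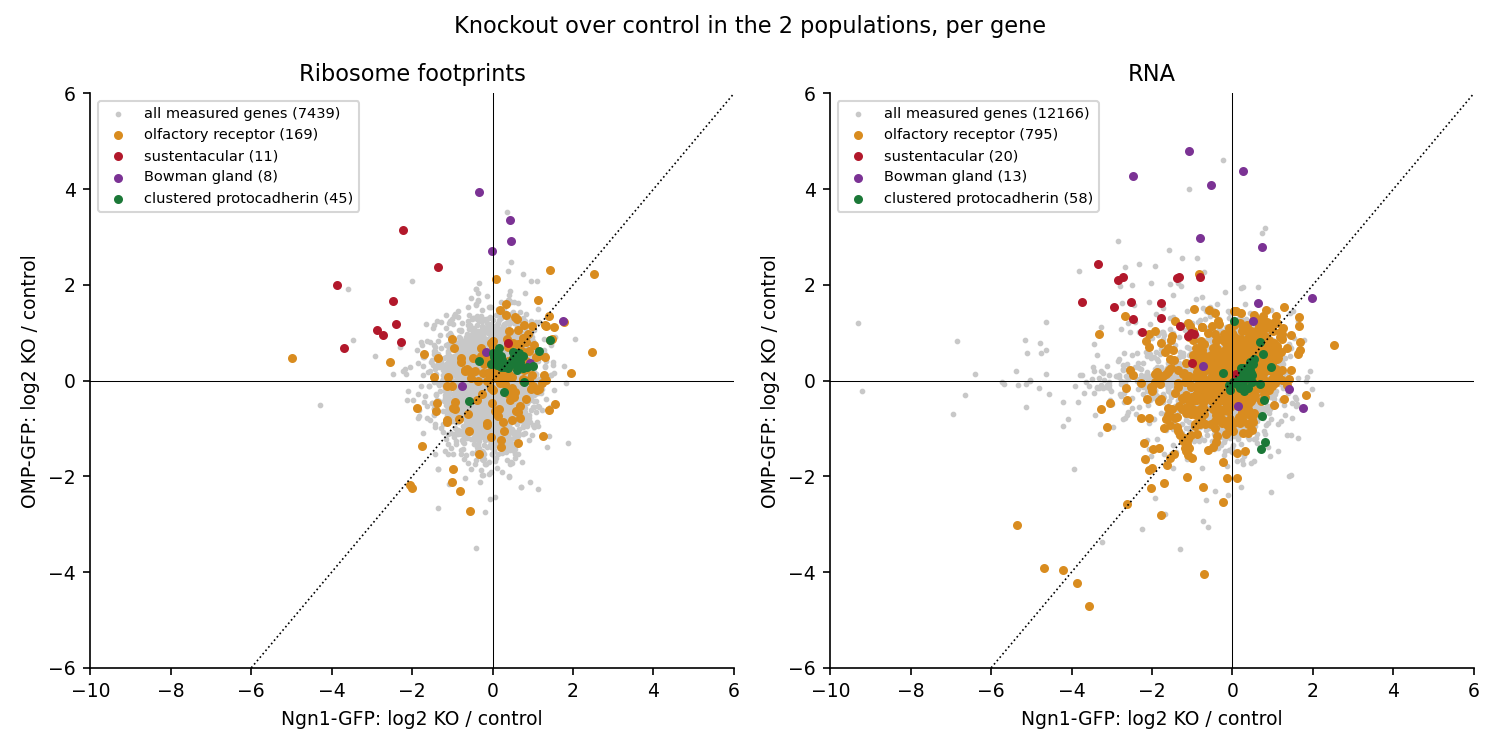
Effect of Mex3a deletion (log2 knockout over control) in Ngn1-GFP cells (x) and OMP-GFP cells (y), 1 point per gene, for footprints (left, 7439 genes) and RNA (right, 12166 genes), with 4 gene lists coloured and the line of equal effects dotted. Sustentacular genes lie at the upper left, opposite in direction, gland genes lie high on the y axis, and the receptors with the lowest RNA effects in both populations lie near the dotted line.

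Sustentacular genes had the widest median difference of any gene list. Of 25 on the list, 11 were members in footprints, and 9 of these were lower in the Ngn1-GFP knockout and higher in the OMP-GFP knockout, against 1.38% of all members. Some, such as Ces1d with 34 and 192 counts in the OMP-GFP columns, were members only through the knockout column. Cyp2g1, with 200 counts in the OMP-GFP control, was not. The list's median effect was -2.40 in Ngn1-GFP and 1.06 in OMP-GFP cells, with a median difference of 3.74. In RNA, 20 were members, 18 were at least 2-fold higher in the difference, against 5.77% of all members, and the medians were -1.57, 1.42 and 3.32. The 2 members that were not opposite in footprints were Sult1d1, a sulfotransferase, with 1969 and 4076 scaled CPM in the Ngn1-GFP and OMP-GFP controls and a difference of 0.41, and Epcam, an epithelial adhesion molecule, with 782.0 and 641.3 and a difference of 0.30. Both were abundant in both populations, unlike the rest of the list.

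Cyp2g1, an olfactory cytochrome P450, had 10521, 468, 200 and 867 footprint counts. The Ngn1-GFP control was the highest column and the OMP-GFP control the lowest, with both knockouts between. Its effect was -3.87 in Ngn1-GFP cells and lay between 1.77 and 2.22 in OMP-GFP cells, a difference of 5.86 [5.61, 6.12], and RNA gave 5.78. Cyp2f2, another P450 of nasal tissue, had 4194, 586, 60 and 579 footprint counts and a difference of 5.37 [4.96, 5.77]. Sec14l3, a lipid-binding protein, had 3958, 197, 127 and 222 and a difference of 4.39 [4.02, 4.77]. A high control with a low knockout in one population and the reverse in the other held for these 3 genes in both assays. Ugt2a1, which conjugates odorants and other small molecules to glucuronic acid, differed by 4.13 [3.88, 4.38] and Ces1d, a carboxylesterase, by 3.74 [3.18, 4.30]. Genes outside the list did the same: Abca13, a large membrane transporter of the ABC family, had 1108, 60, 22 and 90 counts and a difference of 5.50 [4.73, 6.27], and Aqp3, a channel for water and glycerol, had 1660, 268, 28 and 129 and a difference of 4.09 [3.47, 4.71]. In OMP-GFP cells Abca13 and Aqp3 reached the count minimum only through the knockout column. Reads of Ugt2a1 and Ugt2a2, which share exons, and of Cyp2a5 and its close copy Cyp2a4 may be split by the authors' counting.

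The other shared genes of this class were Cbr2, Clu, Cyp2a5, Ephx1, Mettl7a1, Pon1, Prdx6, Sult1c1 and Ugt2a2, among them Ephx1, an epoxide hydrolase, Pon1, a paraoxonase, Prdx6, a peroxiredoxin, and Clu, the secreted chaperone clusterin, and 1 gene with a predicted name. Together, the 23 sustentacular genes other than Sult1d1 and Epcam took 0.951%, 0.143%, 0.0311% and 0.0906% of footprint counts in the 4 columns. In RNA they took 0.198%, 0.0496%, 0.0172% and 0.0548%. Among the list, 1 gene had no footprint count in any column and none lacked RNA. The OMP-GFP knockout stood above its control but below the Ngn1-GFP control. In sorted bulk cells, fewer cells of a type and less RNA per cell cannot be told apart, and the part of sustentacular cells in these columns was not tested.

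Sequence before the RefSeq start was set beside this class because its members shared a direction in both assays. Of the 17 genes, 12 had 1 sequence each in the RefSeq promoter table (GRCm38.p6, the mm10 assembly). Within the 250 bases before the start, on either strand, 6 of 12 held TATAAA, against 6.38% of the 7427 sequences of genes measured in footprints and 12.4% of all 32851 sequences of the table. The 12 had a median GC content of 50.6%, against 60.0% for the genes measured in footprints. In the last 40 bases, on the gene's own strand, 2 of 12 held it, against 0.929% and 2.31%. The motif is not particular to these genes: of the 5 sequences of genes lower in both populations in both assays, 3 held it in the 250 bases and 2 in the last 40. Among all 90 sequences of the 103 footprint genes the shares were 11.1% and 3.33%. TAATTA, the core read by homeodomain proteins such as Lhx2, was in 2 of 12 and 2.67%, and CCCNNGGG, the core of Ebf sites, was in 2 of 12 and 15.3%; both read the same on either strand, and no motif holds another. Lhx2 and Ebf proteins are known for their role at receptor genes. The 100 bases before the start of 2 genes with TATAAA near the start, Aqp3 on chr4:41098184-41098283 (minus strand) and Cyp2a5 on chr7:26835239-26835338 (plus strand), and of 2 without it, Cyp2f2 on chr7:27119855-27119954 (plus strand) and Abca13 on chr11:9191842-9191941 (plus strand), are shown 5′ to 3′ with TATAAA and CCCNNGGG in capitals.
Aqp3: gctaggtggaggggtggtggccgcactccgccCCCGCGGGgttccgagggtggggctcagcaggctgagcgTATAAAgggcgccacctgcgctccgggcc
Cyp2a5: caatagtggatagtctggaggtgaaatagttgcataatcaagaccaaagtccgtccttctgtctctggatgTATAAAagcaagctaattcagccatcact
Cyp2f2: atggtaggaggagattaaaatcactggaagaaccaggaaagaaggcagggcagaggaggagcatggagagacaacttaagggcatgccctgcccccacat
Abca13: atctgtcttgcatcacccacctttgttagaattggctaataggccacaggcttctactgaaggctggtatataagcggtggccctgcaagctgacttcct
In both Aqp3 and Cyp2a5 the TATAAA begins 29 bases before the start. The Abca13 window holds the similar letters tatataag, and only exact matches to TATAAA were counted. A match is a description of letters and not of a factor that binds there.

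In footprints, genes of the Bowman glands were mostly higher in the OMP-GFP knockout, with a smaller median effect in Ngn1-GFP cells. Of 8 gland genes measured in footprints, 4 were 2-fold higher in the difference, against 6.53% of all members, and 0 lower. All 4 were members only through the OMP-GFP knockout column, as their OMP-GFP control counts ran from 11 to 54. Genes with like controls and a low knockout could not be members, so this split is partly set by the membership rule. The list's median effects were 0.20 and 1.98. Obp1a, an odorant-binding protein of nasal mucus, had 172, 88, 48 and 807 footprint counts. Only the last column stood apart, with an effect of 3.95 against -0.34 and a difference of 4.30 [3.74, 4.86], and RNA differed by 4.10. Ltf, the iron-binding lactoferrin, had 635, 556, 54 and 603 counts and differed by 2.93 [2.50, 3.36], Obp2a by 2.73 and Obp2b by 2.48. Bpifb4, a secreted protein of the BPI fold family, was instead higher in both knockouts, with 509, 1118, 69 and 178 counts, an effect of 1.76 in Ngn1-GFP cells and a difference of -0.51 [-0.94, -0.08]. In RNA, 7 of 13 gland genes were higher in the difference, against 5.77% of all members, while 2 were lower, against 1.98%. The lower ones were Bpifb3 at -2.33 and Muc5b, a mucin, at -1.59. Of the 13, 3 were lower in Ngn1-GFP and higher in OMP-GFP knockouts, against 1.23% of all members. These were Bpifb9a at -2.48 and 4.27, Bpifb9b at -1.08 and 4.79, and Obp2a at -0.82 and 2.98. They too were members only through the OMP-GFP knockout, with 13, 33 and 30 RNA counts in the OMP-GFP control. Another 3 were higher in both, against 0.995% of all members. The glands' summed footprints were 0.181%, 0.196%, 0.0239% and 0.0741% of counts in the 4 columns, and the part of gland cells in these values was not tested.

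Other cells of the epithelium gave few members. Of the microvillar, horizontal basal, ensheathing glia and immune lists, 1 gene each was a member in footprints, and none of these 4 genes was 2-fold apart. In RNA, where 5.77% of all members were higher and 1.98% lower, 5 of 6 microvillar, ionocyte and tuft genes were apart. The proton pump subunits Atp6v0a4 and Atp6v1b1 were higher at 3.28 and 2.47 and opposite in direction, and Moxd1, Coch and Trpm5 were lower at -1.14, -1.07 and -1.05. Apod, of ensheathing glia, was lower in RNA at -1.82 and C1qa, a complement gene of immune cells, at -1.13. Among 8 genes of motile cilia measured in footprints 1 was apart, against 12.7% of all members: Dnah11, a dynein heavy chain, at -1.47. Blood and connective tissue genes split within their list in RNA. Haemoglobin beta genes Hbb-bs and Hbb-bt had RNA effects of -2.55 and -3.26 in Ngn1-GFP and of 1.01 and 1.11 in OMP-GFP cells. The haemoglobin alpha gene Hba-a1 had RNA effects of -2.4 and 1.2, but Hba-a2 was lower in both knockouts, at -4.09 and -0.80. Collagen genes stood the other way: Col1a1, the main fibrillar collagen chain, had 26955, 16329, 1983 and 1044 RNA counts, effects of 0.91 and -0.67 and a difference of -1.57. Acta2, smooth muscle actin, differed by -2.70 in RNA. In all, 5 of the 15 measured genes of this list were higher and 7 lower in RNA, against 5.77% and 1.98% of all members. In footprints Col1a1 differed by -0.93, less than 2-fold, and Dcn, the proteoglycan decorin, by 2.33 [1.64, 3.01] from 23 counts in the OMP-GFP control. The part of these cells in the values was not tested.

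**Figure D2:**
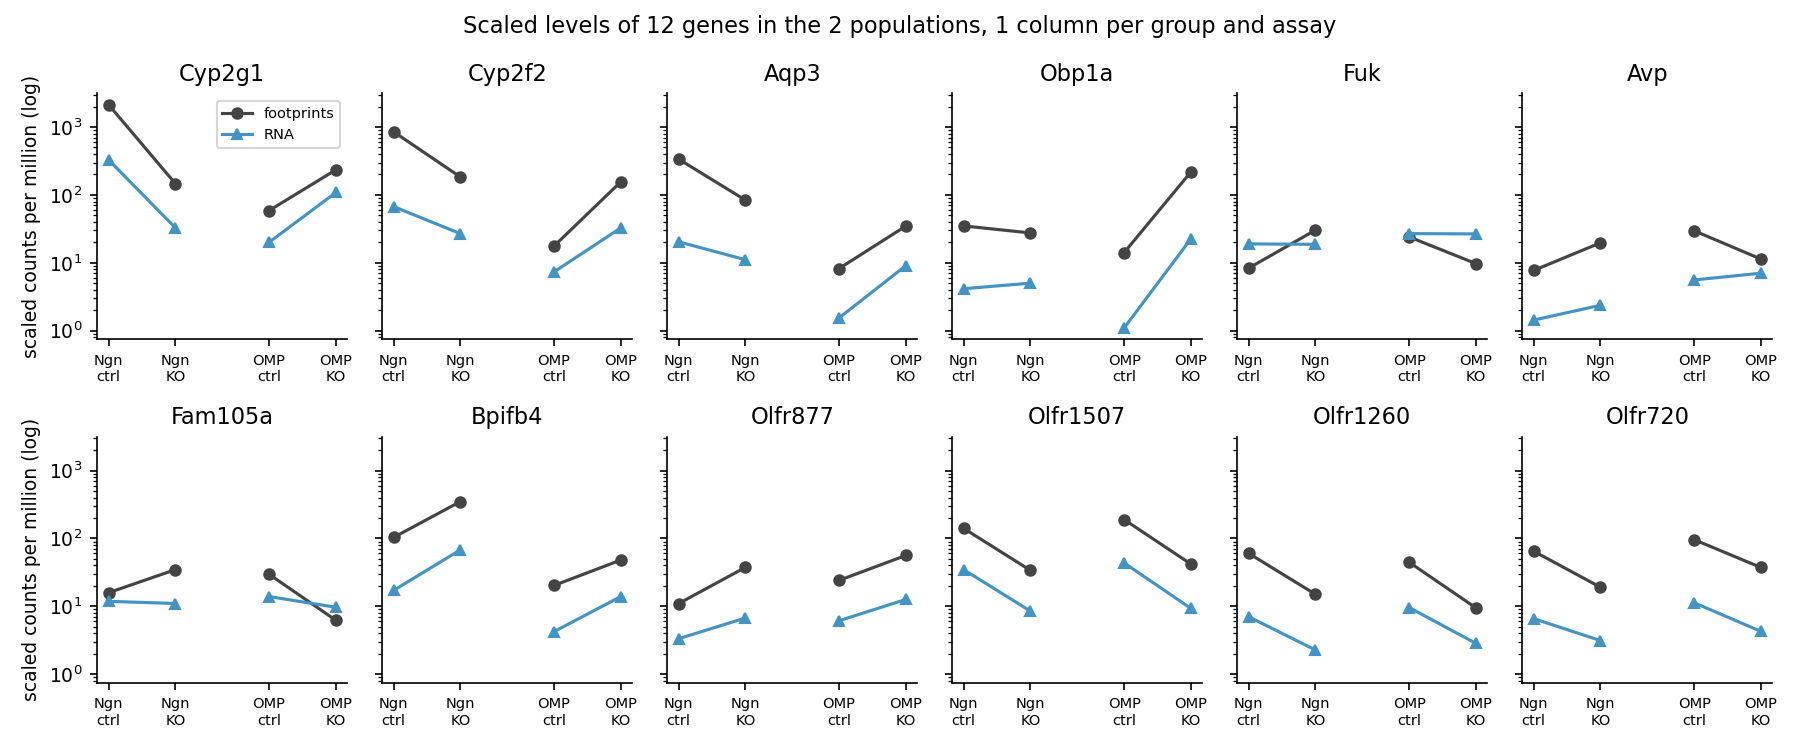
Scaled CPM (log axis) of 12 genes in the 4 columns, Ngn1-GFP control and knockout and then OMP-GFP control and knockout, for footprints (circles) and RNA (triangles), 1 value per column. Cyp2g1, Cyp2f2 and Aqp3 slope oppositely in both assays, Obp1a is high in the OMP-GFP knockout, Fuk, Avp and Fam105a slope oppositely in footprints but not in RNA, and Bpifb4, Olfr877, Olfr1507, Olfr1260 and Olfr720 slope alike.

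The reverse class, higher in Ngn1-GFP and lower in OMP-GFP knockouts, shared no gene between footprints and RNA. Fuk, the fucose kinase, had 41, 97, 82 and 36 footprint counts in the 4 columns, effects of 1.86 and -1.31 and a difference of -3.17 [-3.94, -2.40], while its RNA differed by 0.01. Fam105a had 78, 111, 101 and 23 counts and a difference of -3.39 [-4.16, -2.61], with -0.42 in RNA. Avp, the precursor of vasopressin, had 38, 63, 101 and 42 and a difference of -2.74 [-3.52, -1.96]. Dnali1, an axonemal dynein light chain, differed by -2.57 [-3.24, -1.89], Olfr550 by -2.39 [-3.16, -1.63] and Soga1 by -2.11 [-2.58, -1.64]. None of these 6 genes had more than the 249 counts of Soga1 in the Ngn1-GFP knockout in any column. Of the 61 genes of this class, 48 passed 1.5-fold in neither population in RNA. Also of this class, with smaller effects in Ngn1-GFP cells, were Eri3, an exonuclease, Pop5, a subunit of RNase P and RNase MRP, and Rpl41, a short ribosomal protein, with footprint differences of -3.05, -2.94 and -2.94.

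Olfactory receptors made up much of the classes of equal direction. They were 2.27% of footprint members but 22.6% of those higher in both (24 of 106) and 8.22% of those lower in both (12 of 146). In RNA they were 6.53% of members, 52.9% of those higher in both (64 of 121) and 41.0% of those lower in both (68 of 166). Opposite calls were also more frequent among receptors than among all members, 7 of 169 (4.14%) against 2.2% in footprints and 30 of 795 (3.77%) against 1.51% in RNA. All 30 in RNA were higher in OMP-GFP, and they were 20.0% of that class. Receptors have low counts, where 1.5-fold effects are common, and so were set beside other genes of like counts. At a mean of 50 to 100 footprint counts, 17.4% of 109 receptors and 7.69% of 1300 other genes were equal in direction, and at 100 to 300 counts 26.3% of 57 and 3.27% of 3181. In RNA the shares were 22.6% of 133 and 14.3% of 182 at 50 to 100 counts, and 13.7% of 483 and 5.20% of 1193 at 100 to 300. At 300 or more they were 20.1% of 179 and 0.670% of 9996. That last range has no upper end, so its receptors and other genes are not matched for counts. Over all RNA members, 2.69% of 3044 were equal at 300 to 1000 counts and 0.294% of 7131 at 1000 or more. Opposite calls did not exceed those of other genes in every range. In footprints they were 4.59% of receptors and 5.54% of other genes at 50 to 100 counts, and 3.51% and 2.07% at 100 to 300. In RNA they were 3.01% and 6.59% at 50 to 100 counts, 4.14% and 4.36% at 100 to 300, and 3.35% and 0.9% at 300 or more. Counts in the last range are again not matched.

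Across receptors the effects in the 2 populations had a Pearson r of 0.38 in footprints (n = 169 genes) and 0.46 in RNA (n = 795), and across all other genes 0.05 (n = 7270) and -0.01 (n = 11371). Spearman's rho was 0.36 and 0.38 for receptors and 0.09 and 0.14 for the rest. The 2 effects come from different columns, although all genes of a column share its library and depth, and near-identical receptors may share reads. At 300 or more mean RNA counts the receptors' r was 0.56 (n = 179). The family's sum was close in control and knockout: the median footprint effects were 0.34 and 0.17, and their summed footprints were 0.869%, 0.945%, 1.01% and 0.991% of counts in the 4 columns.

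**Figure D3:**
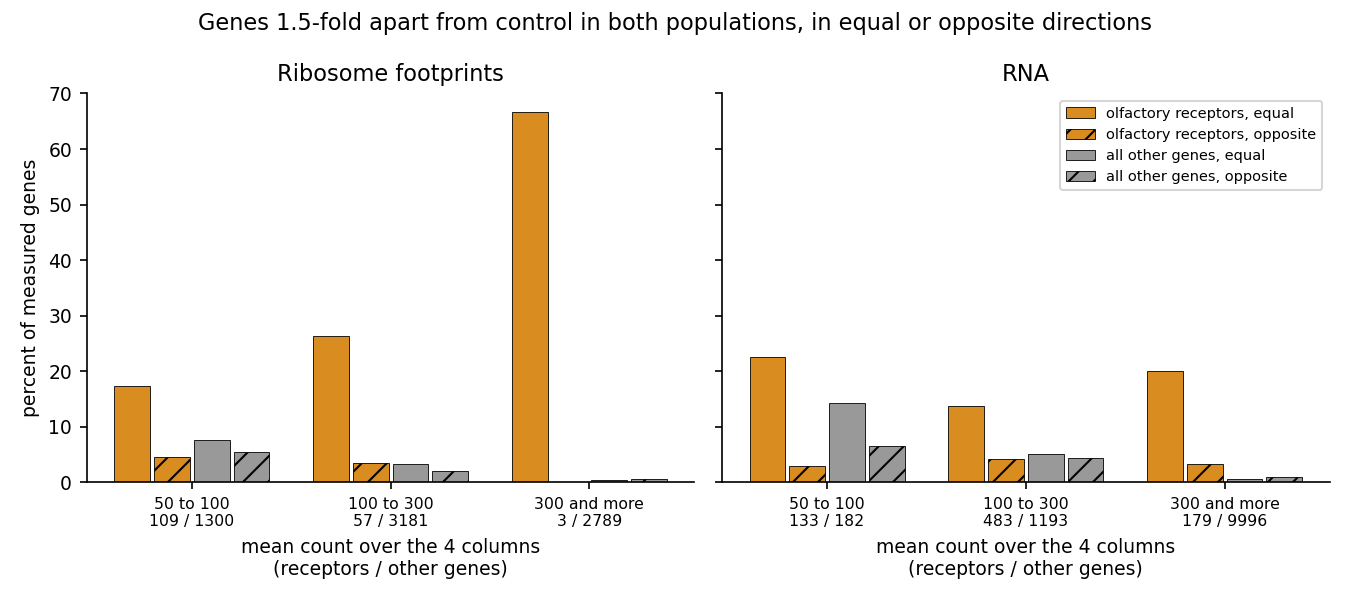
Percent of measured genes that passed 1.5-fold in both populations in equal (plain) or opposite (hatched) directions, for olfactory receptors (orange) and all other genes (grey), in 3 ranges of the mean count, footprints left and RNA right. Receptors exceed other genes in the equal direction in every range, with 20.1% against 0.670% at 300 or more RNA counts. That last range has no upper end, so its genes are not matched for counts. The tallest footprint bar rests on 3 receptors.

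Olfr1507, also known as MOR28, a receptor on chr14:52489935-52495695 of the RefSeq annotation, was lower in both. It had 693, 108, 646 and 155 footprint counts and 3129, 247, 1361 and 242 RNA counts. Both controls were high and both knockouts low, in both assays. Its footprint effects were -2.06 [-2.35, -1.77] and -2.18 [-2.43, -1.93], with a difference of -0.12 [-0.51, 0.27], and its RNA difference was -0.20 [-0.47, 0.07]. Olfr1260 (chr2:89977780-89978712) had 297, 48, 152 and 35 footprint counts and a difference of -0.23 [-0.92, 0.46], and Olfr720 (chr14:14175130-14176080) had 319, 61, 327 and 138 and a difference of 0.40 [-0.09, 0.89]. The intervals of these differences include 0, and their ends at -0.92 and 0.89 leave room for a difference of either sign. The other receptors lower in both populations in both assays were Olfr314, Olfr726, Olfr727, Olfr1346 and 1 pseudogene. Some receptors with too few footprints had wider equal effects in RNA. Olfr183 had 541, 12, 203 and 9 RNA counts, effects of -3.87 and -4.24, and 93, 22, 76 and 3 footprint counts, too few to be a member. Olfr1180, with 288, 5, 259 and 14 RNA counts, and Olfr1281, with 695, 19, 187 and 6, were lower in both in the same way. The 1 gene of this shared class that is no receptor was Scgn, the calcium-binding protein secretagogin, with effects of -0.61 and -0.66 in footprints and -0.97 and -0.98 in RNA.

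In footprints, receptors lower in both populations lay most often on chromosome 14. There, 5 of 9 measured receptors were lower in both populations in footprints, namely Olfr720, Olfr726, Olfr727, Olfr1507 and Olfr1508, against 7 of 158 on all other chromosomes. The median footprint effects of the 9 were -0.83 in Ngn1-GFP and -0.85 in OMP-GFP cells, against 0.37 and 0.19 elsewhere. In RNA, 9 of 38 receptors of chromosome 14 were lower in both, against 59 of 751 elsewhere, and 4 of the 38 were higher in both. The 59 included 23 of 180 on chromosome 2 and 11 of 183 on chromosome 7. The median RNA effects of the 38 were -0.43 in Ngn1-GFP and 0.01 in OMP-GFP cells, against -0.04 and 0.15 elsewhere. The chromosome's receptors as a whole were thus not lower in OMP-GFP RNA. These genes lie in clusters and are not independent counts. The 100 bases before the RefSeq starts of the 2 receptors that were lower in both assays and held TATAAA in the last 40 bases are given for comparison, Olfr1346 on chr7:6474012-6474111 (plus strand) and Olfr720 on chr14:14176081-14176180 (minus strand), with TATAAA, or TTTATA where it lies on the other strand, in capitals. The RefSeq genes of Olfr720 and Olfr1346 are as long as their coding sequences, 951 and 942 bases, so each start is that of the coding sequence and the bases before it may not be those of the promoter in use.
Olfr1346: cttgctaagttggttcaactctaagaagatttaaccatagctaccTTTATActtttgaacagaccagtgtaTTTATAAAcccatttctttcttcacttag
Olfr720: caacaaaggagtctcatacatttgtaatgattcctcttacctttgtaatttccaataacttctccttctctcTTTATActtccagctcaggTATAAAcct

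Higher in both populations and both assays were Olfr30, Olfr220, Olfr464, Olfr877, Olfr1361 and 1 receptor pseudogene. Olfr877 (chr9:37854820-37855755) had 54, 120, 82 and 208 footprint counts, effects of 1.77 and 1.22, and RNA effects of 1.02 and 1.04. Olfr1361 (chr13:21658368-21664523) had 69, 118, 62 and 173 footprint counts, with a difference of -0.04 [-0.64, 0.56]. Both knockouts exceeded both controls for these receptors. Olfr1351 and Olfr1288 had the larger footprint effects, 2.53 and 2.24 and 1.44 and 2.31, but their RNA effects were not both past 1.5-fold. The genes of this shared class that are no receptors were Bpifb4, Ak7, an adenylate kinase, Krt90, a keratin, and Arhgap31. In the class lower in both, Ndufs3, a subunit of respiratory complex I, had 252, 64, 161 and 49 footprint counts and Coq2, of coenzyme Q synthesis, 133, 32, 117 and 44, while RNA effects of Coq2 were -0.37 and -0.06. Rtn4ip1, a mitochondrial protein, was equal in footprints, with effects of 1.35 and 1.33, but not in RNA, with 0.27 and 0.02.

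Receptors also differed between the populations, in footprints more often downward and in RNA, like all members, more often upward. In footprints, 16 of 169 receptors were 2-fold higher and 28 lower in the difference (6.53% and 6.16% of all members). In RNA, 123 of 795 were higher and 47 lower (5.77% and 1.98%). Over all RNA members 74.4% of the 2-fold calls were upward, so the upward lean is not particular to receptors. Most receptors had low counts, where more genes of any kind were apart. A mean of 50 to 100 footprint counts was held by 109 of the 169, and 29.0% of all members in that range were apart. A mean of 100 to 300 RNA counts was held by 483 of the 795, and 19.8% of all members there were apart. Olfr945 had 98, 2, 83 and 126 footprint counts and a difference of 5.47 [3.42, 7.53], and Olfr543 had 90, 10, 113 and 160 and a difference of 2.93 [1.92, 3.93]. For both, 1 low column, the Ngn1-GFP knockout, set the difference, and RNA gave -1.30 and -0.15. Taar6, a trace amine receptor, had 98, 72, 156 and 466 footprint counts, higher in the OMP-GFP knockout, and a difference of 1.28 [0.77, 1.79], with 0.20 in RNA.

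Clustered protocadherins, adhesion proteins that give neurons individual surface identities, mostly had footprint effects above 0 in both populations. Of 58, 45 were members in footprints, 42 had an effect above 0 in Ngn1-GFP and 42 in OMP-GFP cells, and the medians were 0.53 and 0.41, against 0.02 and 0.01 over all members. None of the 45 differed by 2-fold between the populations in footprints. Those named by the rule were Pcdhb16 at -0.80 [-1.21, -0.40], Pcdha2 at 0.75 [0.48, 1.01] and Pcdhga2 at -0.69 [-0.99, -0.40]. In RNA the medians were 0.30 and 0.11, and 55 and 35 of 58 were above 0. There, 4 of 58 were 2-fold lower in the difference, against 1.98% of all members, and 1 higher, against 5.77%. These were Pcdhb3 at -2.15, Pcdhb12 at -2.09, Pcdhb5 at -1.47, Pcdhb8 at -1.18 and Pcdhb4 at 1.22, and 3 of the 58 (5.17%) were higher in Ngn1-GFP and lower in OMP-GFP knockouts, against 0.279% of all members. Isoforms of a cluster share constant exons, which the authors' counting may split among them.

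Other adhesion genes of axon sorting had median footprint effects of 0.30 in Ngn1-GFP and 0.02 in OMP-GFP cells over 27 members, and 18 of the 27 passed 1.5-fold in neither population. Of the 27, 4 were 2-fold lower in the difference and 0 higher, against 6.16% of all members lower. Cntn1, the contactin of axon surfaces, had 426, 359, 356 and 161 counts and differed by -1.64 [-1.98, -1.30]. Dscaml1 differed by -1.37, Tenm4, a teneurin, by -1.35 and Pcdh9, a protocadherin outside the clusters, by -1.05. RNA differences were smaller, -0.82 for Cntn1, -0.55 for Dscaml1 and -0.60 for Tenm4. Axon guidance ligands and receptors had medians of 0.30 and 0.10 over 27 members and none was 2-fold apart; Sema3a, a repellent, was at 0.98 [0.49, 1.48] and Plxna4, a semaphorin receptor, at -0.81 [-0.99, -0.62]. Long coding sequences showed the same: 711 genes over 4000 bases had median footprint effects of 0.33 and 0.07, and the part of length in the adhesion values was not tested.

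Immature neuron genes had a median effect below 0 in OMP-GFP cells alone. Over 22 footprint members the medians were 0.02 and -0.28, and 4 were 2-fold lower in the difference against 6.16% of all members. Gng8, a G protein gamma subunit of immature neurons, had 933, 739, 183 and 97 counts and differed by -1.32 [-1.70, -0.94]. Dbn1, the actin-binding protein drebrin, had 1327, 985, 345 and 200 and differed by -1.10 [-1.38, -0.82]. Elavl4, a neuronal RNA-binding protein, had 1172, 1069, 355 and 267 and differed by -1.02 [-1.28, -0.76]. Their RNA differed by -0.09, -0.30 and -0.23. Gap43, the best known of the list, did not follow them, with effects of 0.02 and 0.11. Mature neuron genes had medians of 0.19 and 0.03 over 35 members, and none was 2-fold apart. Nsg1, a neuronal endosomal protein, had 12983, 10293, 22524 and 43860 counts and differed by 0.55 [0.51, 0.60], and Carns1, which makes carnosine, differed by -0.70 [-0.83, -0.57].

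**Figure D4:**
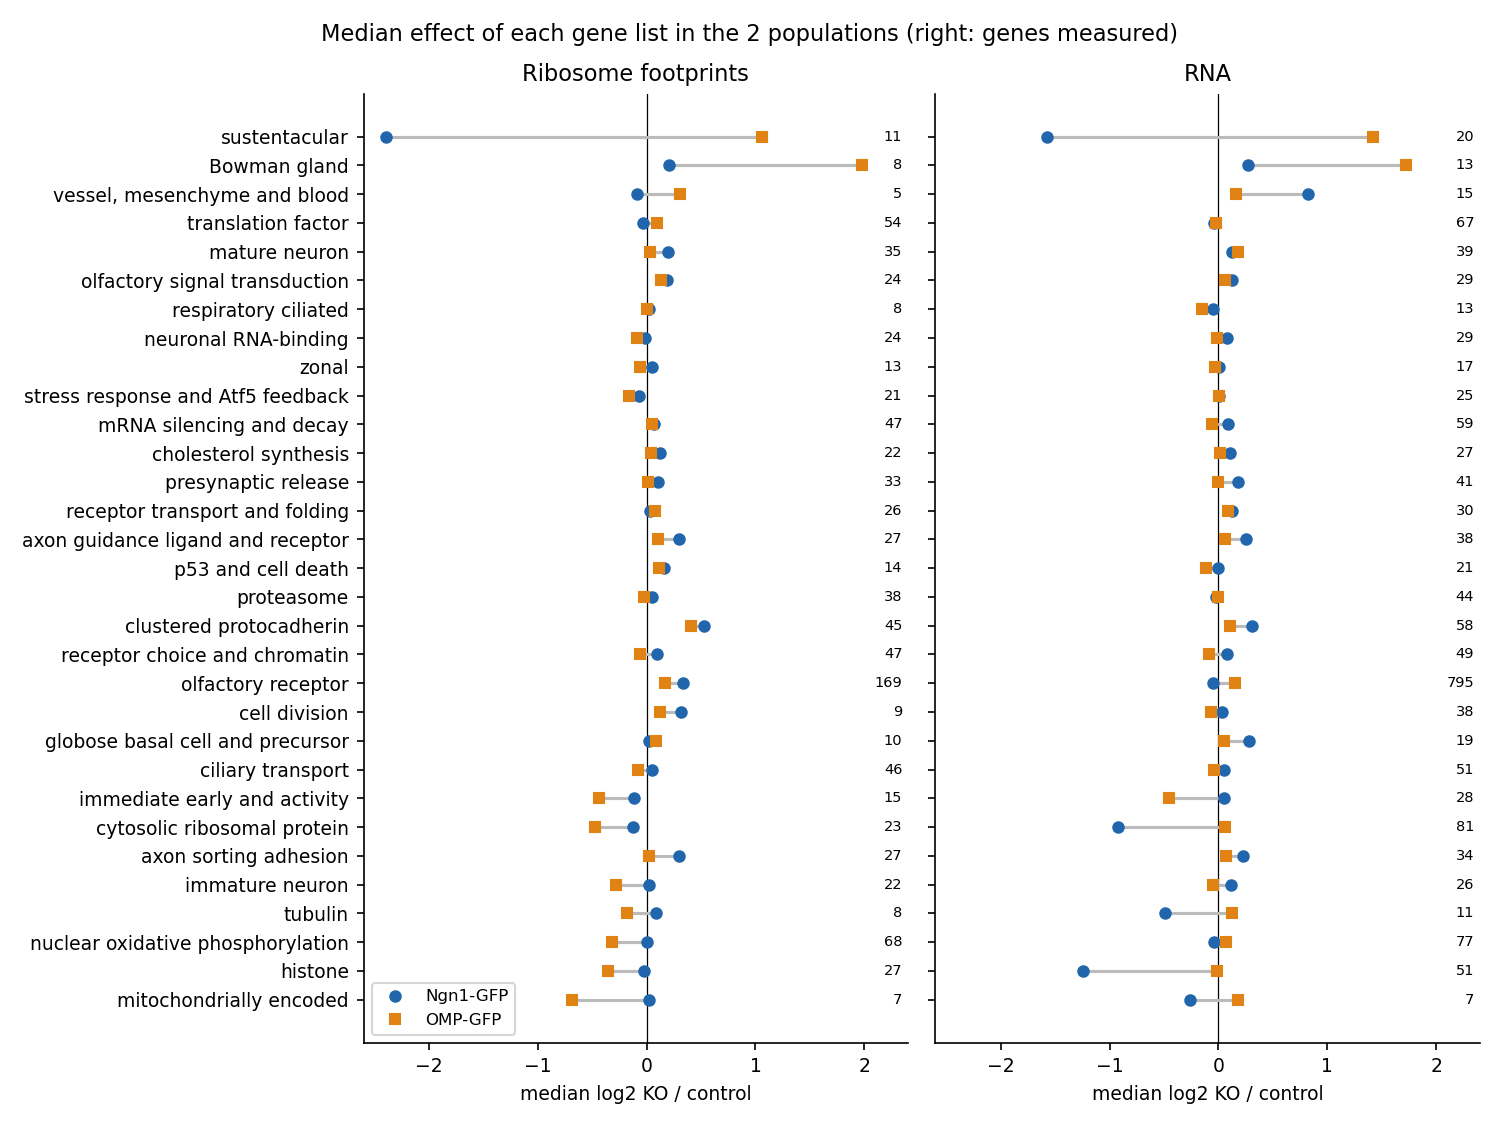
Median effect of Mex3a deletion (log2 knockout over control) in Ngn1-GFP cells (circles) and OMP-GFP cells (squares) for the gene lists with at least 5 genes measured in footprints, ordered by the median footprint difference, with footprints left, RNA right and the number of measured genes at the right edge. Only the sustentacular list has both medians far from 0 on opposite sides, at -2.40 and 1.06, and clustered protocadherins stand to the right of 0 in both populations.

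Immediate early genes, which neurons switch on with activity, had median effects below 0 in OMP-GFP cells. In RNA, the medians over 28 members were 0.05 in Ngn1-GFP and -0.45 in OMP-GFP cells, and 6 were 2-fold lower in the difference against 1.98% of all members. These were Egr3 at -1.54, Arc at -1.48, Npas4 at -1.35, Nr4a3 at -1.15, Egr4 at -1.04 and Klf2 at -1.02. In footprints, 3 of 15 were lower, against 6.16% of all members. Egr1, a zinc finger transcription factor, had 716, 380, 473 and 140 footprint counts, with only the OMP-GFP knockout low, and differed by -1.58 [-1.91, -1.26]. Fos had 1088, 540, 696 and 272 and differed by -1.09 [-1.34, -0.84], and Klf6 had 226, 206, 102 and 42 and differed by -1.89 [-2.47, -1.30]. RNA of Egr1, Fos and Klf6 differed by -0.62, -0.57 and -0.11. Of the 15 footprint members, 7 had a difference above 0 and 8 below. The summed footprints of the list had an effect of 0.22 in OMP-GFP cells. Dissociation is known to induce such genes, and its part was not tested.

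Mitochondrially encoded genes, which make core subunits of the respiratory chain on the mitochondrion's own ribosomes, had lower footprints in the OMP-GFP knockout. All 7 members had an effect below 0 there, with a median of -0.69 against 0.02 in Ngn1-GFP cells, and 3 were 2-fold lower in the difference, against 6.16% of all members. The cytochrome oxidase subunit mt-Co1 had 2574, 1699, 3333 and 1327 footprint counts and differed by -1.47 [-1.60, -1.34], mt-Nd5 by -1.18 [-1.29, -1.07] and mt-Nd4 by -1.03 [-1.27, -0.78]. Nuclear genes of the same complexes had smaller effects of the same sign, with medians of 0.00 and -0.32 over 68 members, 53 of which had a difference below 0. Cox7a2, a further cytochrome oxidase subunit, had 778, 596, 674 and 392 counts and differed by -1.14 [-1.38, -0.90], with -0.18 in RNA. Its coding sequence has 252 bases. Short coding sequences of any kind shifted likewise: 104 footprint members of up to 300 bases had median effects of -0.03 and -0.27. For 348 members of over 300 and up to 500 bases they were 0.00 and -0.12. The part of length in the values of the nuclear genes was not tested. Of the list's 13 genes, 5 had 0 footprint counts in every column.

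RNA differences had the opposite sign for these and for histone and ribosomal protein genes. Histone RNA had medians of -1.25 in Ngn1-GFP and -0.01 in OMP-GFP cells, 29 of 51 genes being 2-fold higher in the difference, and ribosomal protein RNA -0.92 and 0.06, 36 of 81 being higher, against 5.77% of all members. Their footprints did not follow, with median differences of -0.30 and -0.19. Histone footprints were split: 4 of 27 were 2-fold higher and 3 lower, against 6.53% and 6.16% of all members. Higher were Hist1h1b at 1.39, Hist1h1c at 1.17, H1f0 at 1.16 and Hist1h1e at 1.07. Lower were Hist1h2bc at -1.55, Hist2h3b at -1.20 and Hist1h2ak at -1.02. The summed histone footprints differed by 0.21. The RNA of Ngn1-GFP control cells differed from the 3 other RNA columns: there, 48 measured genes exceeded every other column 8-fold or more, and all 48 are among the 702 higher genes, which without them number 654. Tuba1c, an alpha tubulin, had 160629 RNA counts there and 82, 98 and 189 in the other columns. For 5 mitochondrially encoded genes the 3 other RNA columns held 0 or 1 count each and this one many. Differences of RNA and efficiency in these families come with that column's values, and its part in them was not tested.

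**Figure D5:**
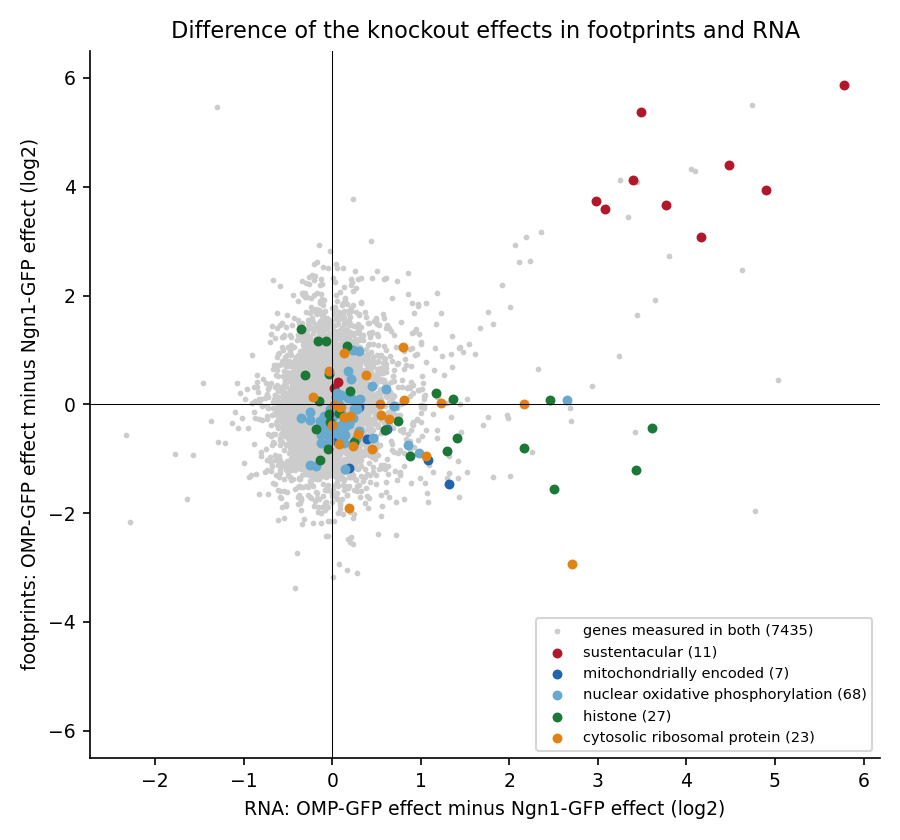
Difference of the deletion's effects (OMP-GFP minus Ngn1-GFP, log2) in RNA (x) and footprints (y), 1 point per gene measured in both assays (7435), with 5 lists coloured. Of 11 sustentacular genes, 9 lie far up on the diagonal, whereas histone genes spread to the right along the x axis, and mitochondrially encoded genes lie at or below 0 in footprints.

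Translational efficiency, footprints over RNA, differed by 2-fold for 542 genes upward (7.29%) and 492 downward (6.62%), so that 52.4% of the calls were upward. That share was 42.4% when receptor, mitochondrial, ribosomal and histone genes were left out of the scaling and 64.6% with the authors' deposited efficiencies. Sustentacular genes, so far apart in each assay, had a median efficiency difference of 0.28. Among the highest differences were Olfr945 at 6.77, Tiam1, a Rac activator, at 2.95, Zfp788 at 2.79, Fahd1 at 2.77 and Atg12, of the autophagy machinery, at 2.61. Atg12 had 252, 130, 126 and 567 footprint counts, with the OMP-GFP knockout the highest column, and 1324, 495, 515 and 425 RNA counts. Among the lowest were Dynlt1a at -6.73, Rpl41 at -5.65, Hist2h3b at -4.63 and Hist1h4b at -4.04, and for each of these 4 the Ngn1-GFP control had the highest RNA of the 4 columns.

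Among regulators of mRNA, the group to which Mex3a belongs, differences went both ways. Of 47 silencing and decay genes in footprints, 4 were 2-fold higher and 2 lower, against 6.53% and 6.16%. Mex3c, a paralog of Mex3a, was among the higher at 1.12, with effects of 0.54 and 1.65. Pan3, of a deadenylase complex, had 118, 72, 85 and 24 counts and differed by -1.85 [-2.63, -1.08], and Ago2, the Argonaute of small RNA silencing, had 235, 160, 166 and 82 and differed by -1.21 [-1.68, -0.73], whereas their RNA differed by -0.07 and -0.02. In the stress response list, Eif2ak2, the kinase PKR, differed by 1.68 [0.94, 2.42] and Sdf2l1, of the endoplasmic reticulum, by -1.15 [-1.64, -0.66]. Genes of receptor choice and chromatin had medians of 0.09 and -0.06 over 47 members, with Setdb1, a histone methyltransferase, lower at -1.01 [-1.34, -0.67] and Sirt1, a deacetylase, higher at 1.67 [0.93, 2.42]. Ciliary transport genes had 5 of 46 lower and 0 higher, against 6.16% and 6.53% of all members, the lowest being Dync2h1, the motor of return transport, with 572, 770, 1031 and 921 counts and a difference of -1.33 [-1.54, -1.13]. Olfactory signal transduction, receptor transport, presynaptic release, proteasome and cholesterol synthesis genes had median differences between -0.07 and 0.03 in footprints, and 1 of 24, 0 of 26, 0 of 33, 3 of 38 and 2 of 22 of their members were 2-fold apart, against 12.7% of all members.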

How the data were processed

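Footprint and RNA reads over coding sequences are the authors' deposited counts, per the file headers, with 1 column for each of the 4 groups although 2 libraries per group are labelled. The sources used here do not state how libraries were joined. Per the submitters' processing notes, FastQC, cutadapt, STAR and mm10 were used, and per the labels' protocols libraries came from a stranded low-input total RNA kit. The authors' deposited translational efficiency, a ratio of footprints to RNA, served as an alternative. Deposited RPKM and TPM values were not used.

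Counts were scaled within assay by TMM (edgeR 4.0.16, R 4.3.3) over 13479 and 16388 genes kept by filterByExpr. Effects are log2 knockout over control of the deposited counts so scaled, with a count of 0 set to 3 and 95% intervals from Poisson error (Python 3.11.15, pandas 2.3.3). No test was planned or made, since the columns have no replicates. The calculation of effects, differences and intervals was tested on simulated counts with Poisson error alone. Scaling, direction classes, lists and efficiency were not part of that test. Of the table's symbols, 21322 (94.5%) were found in RefSeq, from which the promoter sequences and gene positions come. The 36 gene lists and the members were chosen with earlier results of these data known. Named genes are Mex3a, 6 per footprint class ranked by the smaller effect, the 5 widest differences each way by the bound nearest 0 and up to 3 per list by the same bound, without predicted names. All other genes named, such as those beside a list's count, were chosen after their values were seen. Some items that the rule names are not reported here. Alternatives covered the scaling (DESeq2 1.42.0 included), the count minimum, zeros, folds and other cells' markers. Precision was limited by depth: 3 counts were 0.673 to 0.990 CPM in footprints and 0.0336 to 0.111 in RNA.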

Additional observations from a re-analysis of the deposited data

Results flagged for a closer look

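These values had opposite directions in the 2 populations, and in each case the difference was not tested, since each group has 1 column. Footprints of 103 genes and RNA of 150 genes were higher in the OMP-GFP and lower in the Ngn1-GFP knockout, and footprints of 61 genes and RNA of 34 genes were the reverse. The sustentacular list did so as a whole, with a median difference of 3.74 in footprints and 3.32 in RNA. Single genes of the first kind were Cyp2g1 (5.86), Abca13 (5.50), Cyp2f2 (5.37), Ugt2a1 (4.13), Aqp3 (4.09) and Ces1d (3.74), each also opposite in RNA. Single genes of the second kind were Soga1 (-2.11), Olfr550 (-2.39), Dnali1 (-2.57), Avp (-2.74), Fuk (-3.17) and Fam105a (-3.39), for none of which RNA was opposite at 1.5-fold.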

How the results depend on the processing

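No paired analysis was possible because the table holds 1 column per group and assay and none per library, and for the same reason no library could be left out. Library size alone, DESeq2 size factors, TMM without 4 gene families, 0.5 added to every count and the removal of other cells' markers left all counts of genes within 1.5 times those reported, as did the authors' efficiencies and, chosen after seeing the data, the removal of genes 8-fold above each other column in the Ngn1-GFP control RNA. The count minimum and the fold thresholds moved them, as fewer or more genes could pass. With 1 count in each pair, 2507 genes were higher and 2458 lower in footprints, 2235 and 1544 in RNA and 2517 and 2677 in efficiency. At 50 counts these were 866 and 791 in footprints, 407 lower in RNA and 904 and 867 in efficiency. At 500 counts they were 49 and 48, 262 and 20, and 59 and 56. At a 1.5-fold difference they were 1185 and 1209, 1315 and 743, and 1410 and 1191. The footprint classes (OMP-GFP higher with Ngn1-GFP lower, the reverse, both higher, both lower) held 832, 699, 863 and 961 genes at 1 count, 226, 145, 211 and 318 at 50, 10, 2, 8 and 4 at 500, and 19, 5, 16 and 18 at 2-fold in each population. The RNA classes held 715, 477, 638 and 601 at 1 count, 36, 2, 35 and 31 at 500, and 60, 6, 13 and 58 at 2-fold. At 50 counts 3 of them changed by over 1.5 times, to 252, 73 and, for both lower, 252. No list median past 2-fold changed sign, and smaller medians were not checked for sign. Over all settings, 404 comparisons of a list median stayed within the counting interval of the reported median and 87 moved past it. Library size alone moved 24 list medians, and TMM without 4 gene families moved 24. Named genes stayed on their side of a 2-fold footprint difference wherever a setting kept them.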
